A study of Mus musculus with 8 samples.

Results

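The transcripts of 10 genes that move calcium ions out of the cytosol were followed in MB21 cells treated with DS-1-38. The set comprised the plasma membrane calcium pump genes Atp2b1, Atp2b2, Atp2b3 and Atp2b4, the endoplasmic reticulum pump genes Atp2a2 and Atp2a3, the Golgi pump gene Atp2c1 and the sodium-calcium exchanger genes Slc8a1, Slc8a2 and Slc8a3. They were taken by symbol from the 55416 identifiers of the count table, and all 10 were found. Atp2b4 was picked because it was higher with DS-1-38 in the comparison described here, so its change is given as a description without a test, whereas the other 9 were chosen by family. Of the 10 genes, 9 passed the filter on low counts and entered the test with 15133 genes in all. Atp2a3 did not.

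MB21 is a mouse medulloblastoma line that the labels give as a ptch mutant, which all 8 samples share. Non-adherent cells in B27-supplemented medium were exposed for 5 days to 10 uM DS-1-38, a derivative of benzarone, or to the DMSO vehicle. Each group had 4 RNA-seq libraries, called DS38 and DMSO here, with 17142397 to 28476019 counts per library. Nothing in the labels says that a group's libraries are separate cultures, so the p-values reflect how far these particular libraries vary, possibly for technical reasons only, and 1 cell line stands for the tumour. The first principal component (49.2% of the variance) separated the groups, and on the second (14.7%) the libraries numbered 1 lay at the same end in both groups. Every call among the 8 tested genes other than Atp2b4 held without the libraries numbered 1. DS38 replicates 3 and 4 lay together at the other end of the second component (-16.0 and -14.7).

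Resting cells keep cytosolic calcium far below the level outside. Plasma membrane pumps and the reticulum and Golgi pumps are P-type ATPases, which spend ATP and pass through a phosphorylated state, while the exchangers use the sodium gradient to carry larger amounts of calcium at lower affinity. Atp2b1 is the broadly expressed housekeeping pump, Atp2b2 and Atp2b3 are the pumps typical of neurons, with Atp2b2 prominent in the cerebellum, and Atp2b4 is found in red blood cells, sperm, heart and many other tissues. Calmodulin binds the tail of the plasma membrane pumps and activates them. Gene counts do not separate the splice forms of these genes.

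The 250 bases before a RefSeq transcript start are shown for the 3 plasma membrane pump genes with a listed start, 1 window per gene. The build is GRCm38.p6, earlier than the GRCm39 that the submitters' processing notes name. This family was taken because its levels changed in different directions, although Atp2b4 carries no call. Each start shown is also the first base of a transcript in the GENCODE M21 annotation. CpG dinucleotides are in capitals, and each sequence reads 5′ to 3′ on the gene's strand.
Atp2b4, chr1:133753748-133753997, minus strand: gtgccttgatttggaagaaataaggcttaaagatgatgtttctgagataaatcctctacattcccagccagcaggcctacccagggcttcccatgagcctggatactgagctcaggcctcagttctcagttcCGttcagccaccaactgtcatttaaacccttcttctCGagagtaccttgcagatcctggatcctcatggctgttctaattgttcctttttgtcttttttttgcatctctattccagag
Atp2b2, chr6:113891540-113891789, minus strand: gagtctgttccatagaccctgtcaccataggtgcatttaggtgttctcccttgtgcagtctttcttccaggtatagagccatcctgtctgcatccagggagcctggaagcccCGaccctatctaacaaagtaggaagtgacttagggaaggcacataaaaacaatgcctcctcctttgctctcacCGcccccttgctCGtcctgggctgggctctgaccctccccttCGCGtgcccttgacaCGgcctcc
Atp2b1, chr10:98914902-98915151, plus strand: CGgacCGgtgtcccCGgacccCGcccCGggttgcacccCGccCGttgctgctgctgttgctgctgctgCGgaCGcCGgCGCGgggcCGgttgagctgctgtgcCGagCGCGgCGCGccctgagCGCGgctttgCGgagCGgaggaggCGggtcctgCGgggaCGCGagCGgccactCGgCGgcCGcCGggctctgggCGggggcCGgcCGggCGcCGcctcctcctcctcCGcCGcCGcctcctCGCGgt
The Atp2b4 window held 2 CpG and 45.6% GC, the Atp2b2 window shown 6 CpG and 55.6% GC, and the Atp2b1 window shown 41 CpG and 80.8% GC, against medians of 6 CpG and 52.4% GC over the windows of 32851 starts. In GENCODE M21, 2 of 8 Atp2b4 transcripts start further upstream, and the window lies in their intron apart from its last 2 bases. Atp2b2 has 2 other listed starts, whose windows held 16 CpG (69.6% GC) and 6 CpG (52.0% GC), and Atp2b1 has 1 other, with 43 CpG (78.4% GC). In GENCODE M21 the Atp2b2 start shown begins 2 transcripts, the start with 52.0% GC begins 1 and the start with 69.6% GC begins 0. Whether CpG content goes with the direction of change was not tested. The Atp2b2 window shown is intronic in 5 of 8 transcripts of that gene, and the Atp2b1 window shown in 1 of 11. Which start the cells use cannot be read from gene counts.

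RefSeq starts were listed for 8 of the 10 genes, 12 starts in all. The GC box GGGCGG, searched on both strands, was in 7 of these 12 windows and in 32.7% of all windows. It had 3 matches in the Atp2b1 window shown, 1 in the Atp2b2 window and 0 in the Atp2b4 window. CCAAT was in 2 of the 12, the windows of Slc8a2 and Slc8a3, against 33.8% of all. TATAAA (12.4% of all windows), CACGTG (6.02%), the Gli motif GACCACCCA (0.225%) and TGACGTCA (1.55%) were in 0 of the 12.

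Per length, Atp2b4 was the scarcest plasma membrane pump transcript in both groups, and all DS38 libraries had more of it than all DMSO libraries. In CPM (counts scaled to a common library total with TMM factors), Atp2b4 (ENSMUSG00000026463) stood at 3.77, 3.17, 4.24 and 5.61 in DMSO replicates 1 to 4 and at 11.8, 12.3, 10.7 and 10.8 in DS38 replicates 1 to 4. The groups did not overlap, and the gap between them was wider than the range within either. Means were 4.20 ± 1.04 and 11.4 ± 0.796 CPM (SD, n = 4 each), a log2 fold change of 1.46 ± 0.132 (SE), or 2.75-fold. DMSO replicate 4 was the highest of its group, and the coefficient of variation was 24.7% in DMSO and 6.98% in DS38.

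The neuronal pump genes passed the test as higher. Atp2b2 (ENSMUSG00000030302) measured 161, 149, 169 and 170 CPM in the DMSO libraries and 254, 245, 233 and 238 CPM in the DS38 libraries. All 4 DS38 libraries lay far above all 4 DMSO libraries, at 1.50-fold on average (log2 fold change 0.58 ± 0.045 SE, edgeR adjusted p = 1.38e-08). Atp2b3 (ENSMUSG00000031376), an X-linked neuronal pump gene, went from 12.6, 14.6, 16.1 and 15.2 CPM to 22.9, 23.1, 20.3 and 19.8 CPM. Its groups were separate too, with a 1.49-fold rise, or 0.57 ± 0.081 (SE) on the log2 scale, at an edgeR adjusted p = 2.20e-05.

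Atp2b1 moved the other way. The housekeeping pump gene (ENSMUSG00000019943) stood at 221, 225, 240 and 237 CPM in DMSO and at 208, 211, 202 and 192 CPM in DS38. Every DS38 library was below every DMSO library, but the gap between the nearest libraries was small. The fall was 1.13-fold, or -0.18 ± 0.042 (SE) on the log2 scale, with an edgeR adjusted p = 0.00214.

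Of the 8 tested genes other than Atp2b4, 3 rose, 4 fell and 1 did not pass, so 87.5% were called. Over all 15133 genes tested, 39.5% were called, 18.8% higher and 20.7% lower. Groups without overlap occurred in 7 of the 8, against 36.1% of all genes tested (17.3% with every DS38 library above, 18.8% with every one below). The median log2 fold change of the 8 was -0.09, beside -0.01 over all genes. Log2 fold changes rose with gene length across all genes tested (a rank correlation of 0.223 over genes, not over independent replicates), and with a length correction Atp2b1 stood at -0.27 and Atp2b2 at 0.51 on the log2 scale.

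**Figure D1:**
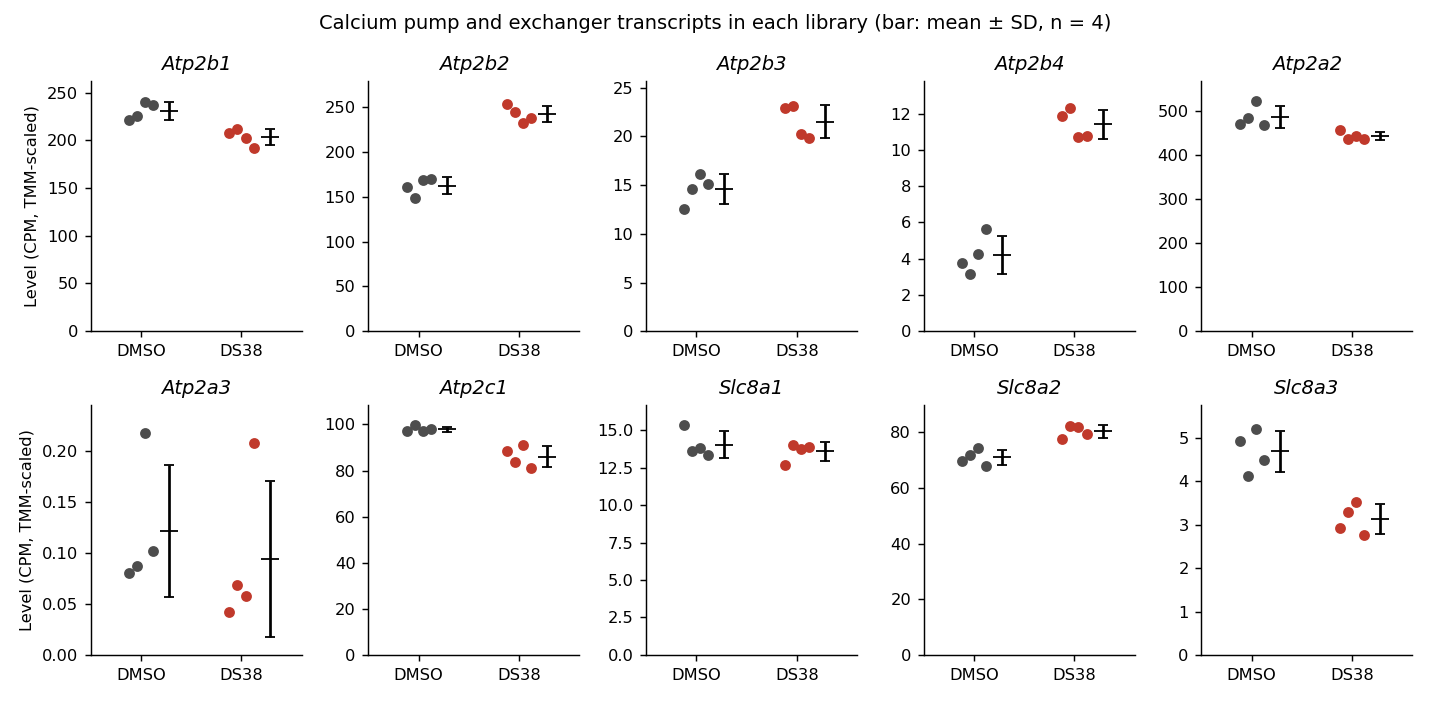
Level of each of the 10 genes in CPM (y axis, from 0, its own scale per gene) in the 4 DMSO and 4 DS38 libraries (points), with the mean and SD beside them. Atp2b2, Atp2b3, Atp2b4 and Slc8a2 are higher in all DS38 libraries, and Atp2b1, Atp2a2, Atp2c1 and Slc8a3 are lower in all of them. Slc8a1 overlaps between the groups, and Atp2a3 stays under 0.22 CPM throughout.

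The make-up of plasma membrane pump transcripts differed between the groups. Levels of different genes were compared per length, as FPKM, which is CPM divided by the gene's length in kilobases. In DMSO, Atp2b1 made up 48.3 ± 0.772% of the summed FPKM of the 4 pump genes and Atp2b2 41.0 ± 1.12% (SD, n = 4). In DS38 the order was turned, with 35.2 ± 0.730% for Atp2b1 and 50.6 ± 0.919% for Atp2b2. The FPKM ratio of Atp2b2 to Atp2b1 was 0.879, 0.801, 0.847 and 0.866 in the DMSO libraries and 1.47, 1.40, 1.39 and 1.50 in the DS38 libraries, without overlap. On the CPM scale, which ignores length, the shares of Atp2b1 were 56.1% and 42.5% and those of Atp2b2 39.4% and 50.7%, with the same turn.

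Atp2b3 contributed 9.64 ± 0.722% of the summed pump FPKM in DMSO and 11.7 ± 0.477% in DS38. On the CPM scale its shares were 3.54% and 4.49%, so their size depends on the division by length. Atp2b4 contributed 1.09 ± 0.227% and 2.45 ± 0.0855% of the summed FPKM, so it remained the smallest part of the 4 in every library. The sum of the 4 pump genes was 31.4 ± 1.56 FPKM in DMSO and 38.0 ± 1.53 FPKM in DS38. Without Atp2b4 it was 31.1 ± 1.50 and 37.1 ± 1.47 FPKM, so the gap between the groups was nearly as wide without it. These sums and shares contain the gene picked for its rise and carry no test.

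**Figure D2:**
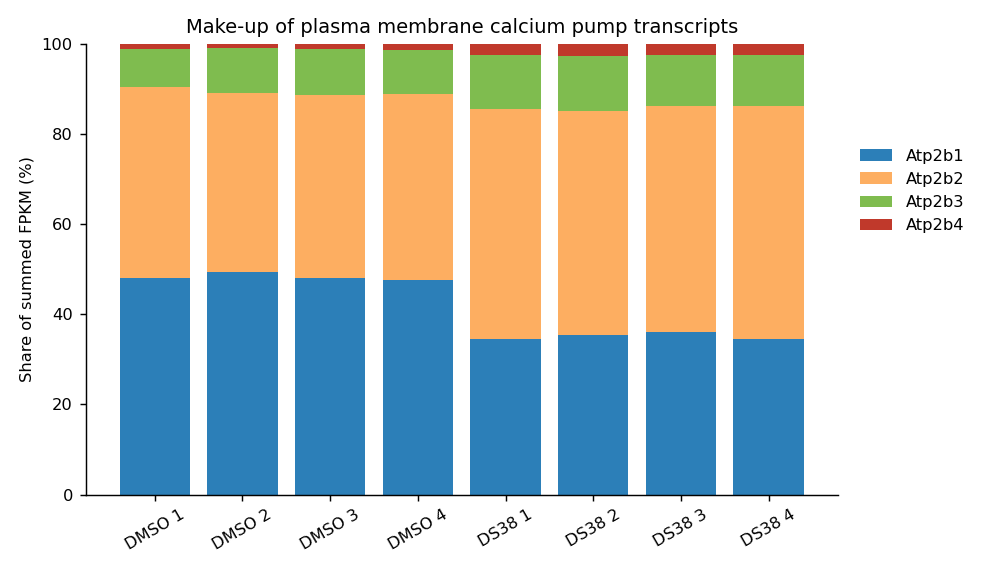
Share of Atp2b1, Atp2b2, Atp2b3 and Atp2b4 in their summed FPKM (y axis, percent) in each library (x axis). Atp2b1 is the largest part in all DMSO libraries and Atp2b2 in all DS38 libraries, while Atp2b4 goes from 1.09% to 2.45% on average.

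The organelle pumps were slightly lower with DS-1-38. Atp2a2 (ENSMUSG00000029467), which encodes the SERCA pump that refills the reticulum in most cells, read 471, 485, 522 and 469 CPM in DMSO and 458, 437, 444 and 437 CPM in DS38. The groups were separate, but DMSO replicate 4 and DS38 replicate 1 were close to each other. The difference was 1.10-fold, or -0.13 ± 0.042 (SE) on the log2 scale, with an edgeR adjusted p = 0.0174. The Atp2a2 call did not hold when DMSO replicate 3 (0.0567), DS38 replicate 2 (0.0586) or DS38 replicate 3 (0.0548) was left out, or with library totals alone as the scaling (0.184).

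Atp2c1 (ENSMUSG00000032570), whose product loads the Golgi with calcium and manganese, fell from 97.0, 99.6, 97.1 and 97.8 CPM to 88.5, 83.6, 91.2 and 80.9 CPM. The DMSO libraries were nearly equal, and all DS38 libraries were lower (1.14-fold, log2 fold change -0.19 ± 0.043 SE, edgeR adjusted p = 0.00205). Atp2a3 (ENSMUSG00000020788), the SERCA gene best known from blood and epithelial cells, had 1 to 4 counts in each of the 8 libraries and 18 counts in all. At 0.122 ± 0.0645 CPM in DMSO and 0.0941 ± 0.0768 CPM in DS38, no difference was detectable at this depth, so the SERCA transcripts of these cultures were almost all Atp2a2.

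The exchanger genes went in different directions. Slc8a2 (ENSMUSG00000030376), the brain exchanger gene, measured 69.7, 71.8, 74.5 and 68.0 CPM in DMSO and 77.6, 82.2, 82.0 and 79.4 CPM in DS38. It was 1.13-fold higher with no overlap between groups (log2 fold change 0.18 ± 0.042 SE, edgeR adjusted p = 0.00268). Slc8a3 (ENSMUSG00000079055), an exchanger gene of brain and skeletal muscle, went from 4.93, 4.13, 5.22 and 4.49 CPM to 2.93, 3.30, 3.51 and 2.76 CPM. Its libraries held 53 to 123 counts each, and the groups were separate.

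Slc8a3 fell 1.50-fold, or -0.58 ± 0.136 (SE) on the log2 scale, with an edgeR adjusted p = 0.00224. The FPKM of Slc8a2 was 15.4 ± 1.52 times that of Slc8a3 in DMSO and 26.2 ± 2.36 times in DS38 (SD, n = 4 each). Slc8a1 (ENSMUSG00000054640), the exchanger gene best known from the heart, read 15.3, 13.6, 13.8 and 13.4 CPM in DMSO and 12.6, 14.0, 13.8 and 13.9 CPM in DS38. Its groups overlapped, and the log2 difference of -0.05 had a 95% interval of -0.23 to 0.13 (edgeR adjusted p = 0.625). Both extremes, the highest DMSO and the lowest DS38 library, were libraries numbered 1, and without those 2 the difference was 0.033.

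Ordered by FPKM, Atp2a2 was first in both groups, at 80.1 ± 4.04 in DMSO and 73.0 ± 1.58 in DS38. In DMSO it was followed by Atp2b1 (15.2 ± 0.603), Slc8a2 (13.5 ± 0.533), Atp2b2 (12.9 ± 0.753), Atp2c1 (10.1 ± 0.122) and Atp2b3 (3.03 ± 0.314). Below 1 FPKM came Slc8a3 (0.880 ± 0.0902), Slc8a1 (0.746 ± 0.0469), Atp2b4 (0.343 ± 0.0849) and Atp2a3 (0.0230 ± 0.0122). The ranges of Slc8a2 and Atp2b2 overlapped in DMSO, as did those of Slc8a3 and Slc8a1, and the other neighbours did not overlap.

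In DS38 the order was Atp2a2, Atp2b2 (19.2 ± 0.703), Slc8a2 (15.3 ± 0.420), Atp2b1 (13.4 ± 0.557), Atp2c1 (8.88 ± 0.479), Atp2b3 (4.47 ± 0.357), Atp2b4 (0.932 ± 0.0650), Slc8a1 (0.722 ± 0.0336), Slc8a3 (0.586 ± 0.0647) and Atp2a3 (0.0178 ± 0.0145), with no overlap between neighbours. Atp2b2 rose from the fourth place to the second, and Atp2b4 from the ninth to the seventh. The sum over the 10 genes was 136.7 ± 5.39 FPKM in DMSO and 136.5 ± 2.75 FPKM in DS38. FPKM rests on the deposited gene lengths, which cover all exons of a gene, so genes with long or alternative exons are understated where the cells use short forms.

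**Figure D3:**
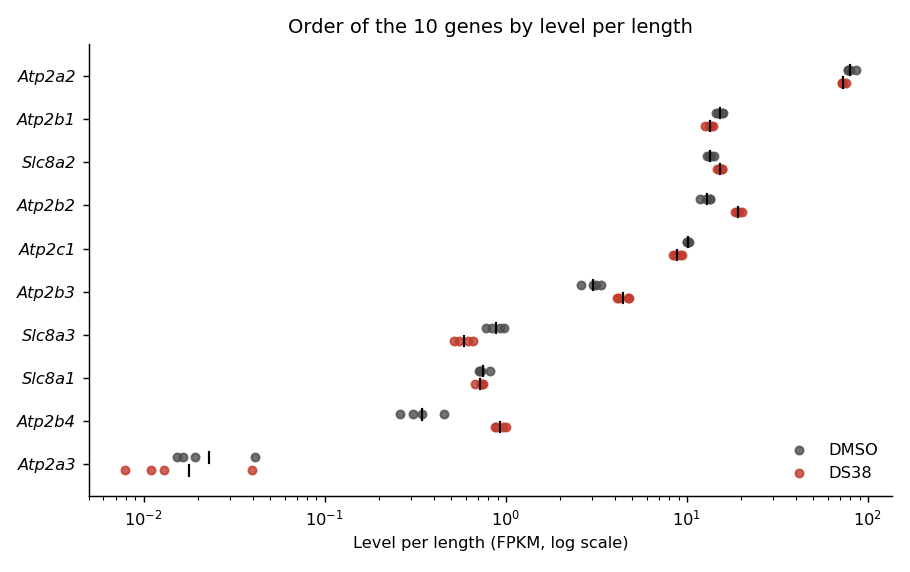
FPKM of the 10 genes (x axis, log scale) in each library (points, with a line at the group mean), ordered by their mean in DMSO. Atp2a2 is highest near 80 FPKM in DMSO, 4 genes lie between 10 and 16 FPKM there, and Atp2b4 passes Slc8a1 and Slc8a3 in DS38.

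The genes whose log2 CPM followed Atp2b4 most closely over the 8 libraries, out of 10163 tested genes that averaged 4 CPM or more and are not predicted genes, were Map3k7 (Pearson's r 0.996), Atxn2 (0.994), Nav2 (0.994), Fam102b (0.994) and Thsd7a (0.993). Their own log2 fold changes ran from 0.07 for Map3k7 to 0.88 for Nav2. The most opposite were Mtfr1 (r = -0.9995), Rpf1 (-0.995), Eif4e (-0.993), Polr3k (-0.992) and Dusp6 (-0.992). Atp2b2 was the pump gene nearest to Atp2b4, with r = 0.987 over all libraries and 0.841 after the group means were removed. These values share libraries and the split between the groups, so they are a description.

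The closest gene to each other member was Ptar1 for Atp2b1 (r = 0.992), Btbd11 for Atp2b2 (0.997), Ptpn14 for Atp2b3 (0.992) and Ubn1 for Atp2a2 (0.986). For Atp2c1 it was Zfp846 (0.991), for Slc8a1 Trim3 (0.939) and for Slc8a2 Gbp7 (0.984). Slc8a3 was below the level at which this was computed.

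The genes around the pumps were described from 6 lists with 56 genes, 42 of them tested. Of these 42, 10 rose, 12 fell and 20 did not pass, or 52.4% called beside 39.5% of all genes, and their median log2 fold change was 0.02. With library totals alone the split was 12 higher and 8 lower, and without DS38 replicate 2 it was 6 higher and 10 lower. The cytosolic calcium buffers Calb2 and Pvalb, which bind calcium that the pumps then remove, had the first and the third largest log2 fold changes of the 42 by size, with Ryr2 between them.

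Calb2, the calretinin gene, read 35.8, 36.9, 39.7 and 40.4 CPM in DMSO and 10.3, 10.9, 10.3 and 8.43 CPM in DS38. All DS38 libraries were far lower, by 3.80-fold (-1.93 ± 0.074 SE on the log2 scale, edgeR adjusted p = 7.15e-13). Pvalb, the parvalbumin gene, went from 26.0, 24.0, 23.0 and 25.7 CPM to 47.3, 44.6, 49.7 and 53.2 CPM. It rose 1.96-fold (log2 fold change 0.97 ± 0.061 SE, edgeR adjusted p = 6.98e-10). Per length, the ranges of Calb2 and Pvalb overlapped in DMSO, at 20.5 to 23.2 and 22.1 to 25.0 FPKM, and lay far apart in DS38, at 4.84 to 6.24 and 42.9 to 51.1 FPKM. Calb1, the calbindin gene, had 1 count in all.

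Of 9 tested calcium buffers and luminal calcium-binding protein genes, 3 rose, 4 fell and 2 did not pass (median log2 fold change 0.02). Besides the pair of buffers, Sdf4, which encodes a calcium-binding protein of the Golgi lumen, fell (log2 fold change -0.34, edgeR adjusted p = 1.28e-05). Of 8 tested pump partners and regulators, 1 rose, 2 fell and 5 did not pass (median -0.10). Calm3, a calmodulin gene, fell from 486 ± 31.0 to 427 ± 22.8 CPM (log2 fold change -0.19, edgeR adjusted p = 0.00607), but its groups overlapped. Calm2, another calmodulin gene, was higher per length (552 FPKM in DMSO against 201 FPKM for Calm3). It did not pass (log2 fold change 0.04, edgeR adjusted p = 0.484), so the fall of Calm3 does not stand for calmodulin as a whole.

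Nptn, which encodes neuroplastin, an obligatory partner of the plasma membrane pumps, fell slightly (log2 fold change -0.12, edgeR adjusted p = 0.0348). The Nptn call did not hold when DMSO replicate 2 (0.0666), DMSO replicate 3 (0.102), DS38 replicate 1 (0.105) or DS38 replicate 2 (0.123) was left out, nor without both libraries numbered 1 (0.0614), with library totals alone (0.275), with DESeq2 (0.0563) or with a minimum of 50 counts in 4 libraries (0.0606). The SERCA-binding micropeptide gene Strit1, matched as Gm34302, was not counted once (0 counts), and in the library with the lowest total this leaves room for 0.173 CPM by counting error.

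Of 6 other calcium pump and exchanger genes tested, 2 rose, 2 fell and 2 did not pass (median log2 fold change 0.01). Tmem165, a Golgi transporter gene of calcium and manganese, fell from 93.9 ± 3.09 to 74.7 ± 2.58 CPM (log2 fold change -0.33, edgeR adjusted p = 6.30e-06), as the Golgi pump gene Atp2c1 had. Slc8b1, the sodium-calcium exchanger gene of mitochondria, rose from 2.63 ± 0.368 to 3.87 ± 0.263 CPM (0.56, adjusted p = 0.00559). Slc24a5, a potassium-dependent exchanger gene, rose from 1.80 ± 0.353 to 2.64 ± 0.445 CPM (0.55, adjusted p = 0.0268). The Slc24a5 call did not hold when DMSO replicate 2 (0.0601), DMSO replicate 3 (0.0860), DS38 replicate 2 (0.0889) or DS38 replicate 3 (0.0583) was left out, nor with counts thinned to the smallest total (0.104).

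Of 5 tested reticulum release and leak channel genes, 1 rose, 2 fell and 2 did not pass (median log2 fold change -0.02). The leak channel gene Tmco1 (log2 fold change -0.33, edgeR adjusted p = 6.10e-06) and Pkd2, the polycystin-2 gene (-0.29, adjusted p = 0.000353), fell. Ryr2, a ryanodine receptor gene, rose from 0.685 ± 0.247 to 1.52 ± 0.315 CPM (1.18, adjusted p = 0.00256), with 8 to 52 counts per library. Itpr1, highest per length of the inositol trisphosphate and ryanodine receptor genes, did not pass, at 4.60 FPKM in DMSO and 4.52 FPKM in DS38.

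Store-operated entry refills the reticulum from outside. Of its 7 tested genes, 1 rose, 2 fell and 4 did not pass (median log2 fold change 0.03). The channel gene Orai2 rose from 28.8 ± 2.33 to 39.5 ± 2.55 CPM (log2 fold change 0.45, edgeR adjusted p = 2.13e-05). Saraf, which encodes a brake on this entry, fell by 0.14 on the log2 scale (adjusted p = 0.00841), a call lost with library totals alone (0.118), and Stimate, counted as Tmem110, fell by 0.27 (adjusted p = 0.0112).

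Of 7 mitochondrial calcium uptake genes, 2 rose, 0 fell and 5 did not pass (median log2 fold change 0.11). Mcur1 rose slightly (log2 fold change 0.12, edgeR adjusted p = 0.0409), but did not pass without DMSO replicate 1 (0.0521), DMSO replicate 2 (0.153), DMSO replicate 4 (0.0575), DS38 replicate 1 (0.120), DS38 replicate 2 (0.0649) or DS38 replicate 4 (0.0589). Mcur1 also did not pass without both libraries numbered 1 (0.133), with no filter on low counts (0.114), with a length correction (0.0824), with the replicate block (0.0679), with both of these (0.113) or with thinned counts (0.0632). Smdt1, the gene of an essential small subunit, did not pass (-0.13, adjusted p = 0.0731), but passed without DMSO replicate 4 (0.0395) or DS38 replicate 4 (0.0217).

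**Figure D4:**
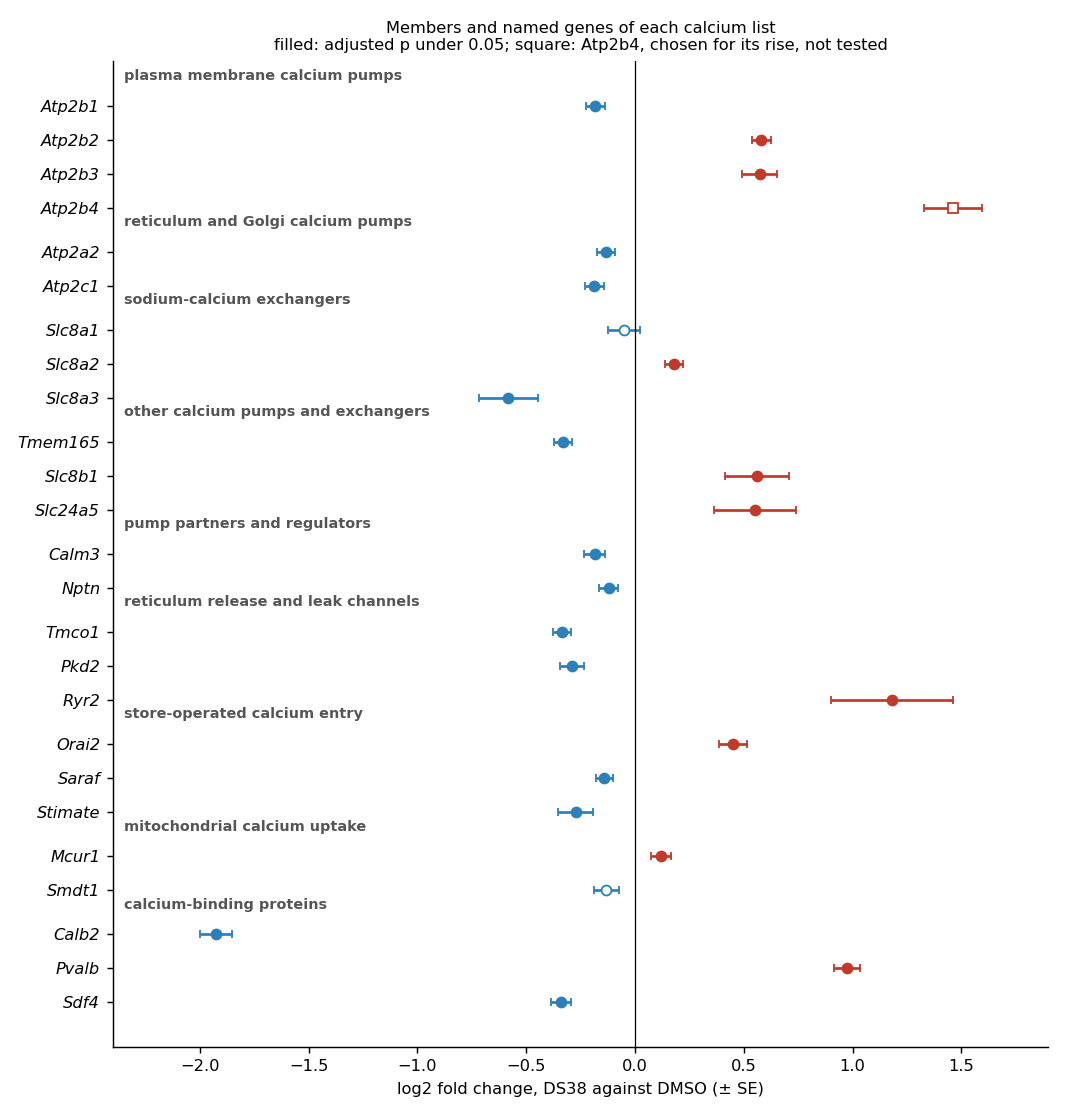
Log2 fold change of DS38 against DMSO with its SE (x axis) for the 9 tested members and the named genes of each calcium list (y axis). Filled circles passed the adjusted p of 0.05, open circles did not, and the open square is Atp2b4, which was chosen for its rise. Calb2 (-1.93) and Atp2b4 (1.46) are the ends of the range.

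The 8 progenitor and medulloblastoma markers were all expressed, 4 of them higher and 2 lower, where 39.5% of all genes tested were called. Atoh1 (log2 fold change 0.60), Barhl1 (0.71) and Zic2 (0.18) were higher, and so was Pax6, nearer the threshold (0.11, edgeR adjusted p = 0.0385). The calls of markers were not followed under the alternative settings. Gli1 (-0.60, from 137 to 90.9 CPM on average) and Zic1 (-0.16) were lower, and Neurod1 and Mycn did not pass. The summed levels of the 8, at 1449 to 1519 CPM in DMSO and 1567 to 1629 CPM in DS38, combine these opposite changes. In bulk cultures, fewer cells of a type and less RNA per cell cannot be told apart. Summed astrocyte markers ran from 2.13 to 3.37 CPM in DMSO and from 3.38 to 4.30 CPM in DS38. Of the 4, only 2 were tested, and 1 was higher (Gfap). Summed skeletal muscle markers ran from 0.970 to 1.56 CPM in DMSO and from 1.93 to 2.59 CPM in DS38. They were mostly Ttn (0.818 and 1.70 CPM on average), the only 1 of the 5 tested, which was higher. Summed fibroblast markers, carried by Pdgfra (73.3 and 51.1 CPM on average), ran from 72.5 to 76.5 CPM in DMSO and from 50.5 to 54.0 CPM in DS38. Of the 5, only 3 were tested. Pdgfra was lower, Col1a1 was higher and Lum did not pass. Col1a1 and Lum averaged under 1 CPM in each group, and Col1a2 and Dcn had 3 and 8 counts in all. The part of these cell types in the changes of the calcium genes was not tested.

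Oligodendrocyte (2.22 to 3.11 CPM, 2 of 5 markers tested) and endothelial markers (0.802 to 1.79 CPM, 1 of 4 tested) had no called gene. None of the erythroid (0.174 to 0.562 CPM), Purkinje cell (0 to 0.208 CPM) and microglia markers (0 to 0.138 CPM) had enough counts to be tested. Mag, Cx3cr1, Cldn5, Hba-a1 and Hbb-bs had 0 counts in every library. The third erythroid marker, Alas2, had 4 to 14 counts per library.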

How the data were processed

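Counts of 8 MB21 messenger RNA libraries came from 1 table. The deposited values are whole-number counts per gene, not normalized by the authors, with each gene's length in bases per the file headers. Per the submitters' processing notes, the tools were Subread 2.0.3 with featureCounts, STAR 2.7.9a, edgeR and R 4.1.0, and the builds GRCm39 and GRCh38.p13, whose role is not stated. Strand use, multi-mapping and the annotation were not given in the sources used, so overlapping genes can share reads.

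Symbols came from GENCODE M21, with 52083 of 55416 identifiers matched, and 2 list genes were matched through a RefSeq synonym. The test was that of edgeR 4.0.16 under R 4.3.3 (robust quasi-likelihood test, TMM, filterByExpr with 10 counts), with Benjamini-Hochberg adjustment over 15133 genes and a threshold of 0.05. Standard errors are the log2 fold change over the square root of F, and the 95% interval takes 6 residual degrees of freedom. The test was run on simulated counts with few changed genes, balanced up and down, and the same spread for every gene. That run cannot check the choice of scaling or the uneven spread of these libraries. Within groups, pairs of libraries differed by a chi-square of 4.25 to 20.5 per degree of freedom, so none was taken for a repeat of another. The DS38 libraries fell into pairs, replicates 1 and 2 (4.79) and replicates 3 and 4 (4.25). Across these pairs the values were 11.9 to 20.5. No fit left out either pair, so how far the calls rest on counting the 4 DS38 libraries as separate was not tested. The members and lists were chosen with earlier results of these data known. Named were all members, the 3 genes of smallest p and the genes without counts of each list, and the genes with the highest or lowest correlation. The results of 2 list genes are not reported here. Itpr1, Calb1, Calm2 and the 8 progenitor and medulloblastoma markers were named after their values were seen. The alternatives were other scalings, filters and tests (DESeq2 1.42.0, limma-voom 3.58.1), a replicate block, a gene length correction, thinning and leaving out libraries. Floors use 3 counts and cover counting error only.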

Additional observations from a re-analysis of the deposited data

Results flagged for a closer look

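In 4 of 58 groups of 4 libraries, 1 library stood far from the other 3, where chance flags about 1 in 20. The 58 include the 2 groups of Strit1, which had 0 counts and could not be flagged. Slc8a1 was lowest in DS38 replicate 1, at 12.6 CPM against 13.8 to 14.0 CPM in the others. Slc24a5 was lowest in DS38 replicate 4, at 1.98 CPM against 2.76 to 2.92 CPM. Atp2a3 was highest in DMSO replicate 3 (0.217 CPM against 0.0802 to 0.102 CPM) and in DS38 replicate 4 (0.208 CPM against 0.0419 to 0.0688 CPM), in both cases on 4 counts.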

How the results depend on the processing

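Of the 8 tested members other than Atp2b4, all kept their direction and their side of the threshold under the 20 alternatives except Atp2a2, whose call was lost under 4 of them, and Slc8a1, never called, whose difference changed sign with library totals alone (0.011) and without both libraries numbered 1 (0.033). Atp2b4 ranged from 1.34 to 1.62, Atp2b2 from 0.51 to 0.64, Atp2b3 from 0.47 to 0.63, Atp2b1 from -0.27 to -0.12 and Slc8a3 from -0.64 to -0.52 on the log2 scale. Calls of the calcium lists ranged from 6 to 9 higher when 1 library was left out, beside 10 with all. Genes raised made up 47.5% of all calls, and 64.3% with library totals alone.

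With the replicate block, 5594 genes were called in place of 5980, and no call among the members changed. Same-numbered libraries deviated from their group means with correlations of 0.331, -0.0699, 0.067 and -0.0816, and not every library correlated best with its own number, so the numbers were not taken as pairs. Depth limits Atp2a3, with at most 4 counts a library.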

Other observations

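Outside the tested genes, both of the following were named after their values were seen. Mrln encodes a SERCA-inhibiting micropeptide known from muscle. It had 1 to 3 counts in each DMSO library and 5 to 14 in each DS38 library. Its log2 fold change was 2.20 when no filter on low counts was used. Atp2c2, the second Golgi-type pump gene, had 0 to 2 counts in each DMSO library and 3 to 10 in each DS38 library. Its log2 fold change in the same fit was 2.17. Fold changes at such counts depend on the fit, and both are given as a description without a test.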
